A study of Arabidopsis thaliana with 6 samples.

Results

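The genes described here had no count in leaves of the Arabidopsis thaliana mutant cat2-2 kept at high CO2 and were counted in every library after a shift to high light in ambient air. They were chosen by their own counts in this comparison: 0 in all 3 high CO2 libraries, at least 5 in each of the 3 high light libraries and at least 30 over these 3. Of 33602 genes in the count table, 33323 of them nuclear, 69 met the rule. Another 1323 nuclear genes had 0 counts in high CO2 and at least 1 in high light but fell short of the rule, and 9463 nuclear genes had 0 counts in all 6 libraries.

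Both groups carried cat2-2, a mutant of the main leaf catalase in the Columbia-0 background, so neither is a wild type. The high CO2 group (0 h) stood at 3000 ppm CO2 and 75% relative humidity in light of 120 µmol m-2 s-1. The high light group had spent 3 h in another chamber at 400 ppm CO2 and 55% relative humidity in light labelled 1200 µmol, with 21 °C given for both. Plants were 3 weeks old, with a day of 16 h and a night of 8 h given for both groups. Each library pooled middle-aged leaves of 15 plants from one of 3 repeats of the experiment. Catalase removes the hydrogen peroxide of photorespiration, a pathway that high CO2 holds back. CO2, light, humidity, chamber and time changed together, so their parts cannot be told apart.

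Many plant genes stay silent in unstressed leaves and are transcribed within minutes to hours of a stress. Typical products are small chaperones that hold unfolding proteins, efflux carriers and conjugating enzymes that deal with reactive compounds, precursors of danger peptides read by cell surface receptors, and transcription factors. In a sequencing experiment such genes appear as a count of 0 that becomes a positive count, and the 0 gives only an upper limit on their earlier level.

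Library totals ranged from 18047295 to 24149149 counts. Over the 3 high CO2 libraries a count of 0 allows up to 3 counts, which is 0.0477 CPM (counts scaled to a library of 1e6 by TMM factors). Each fold below is the mean high light CPM over this limit. It is a lower bound as to the high CO2 side only, since the high light mean is taken as measured. The limit covers counting error in high CO2 only, and the genes were chosen on both sides of the fold. Leaf mesophyll markers were the abundant markers in every library, and their summed level was 56534 to 78789 CPM in high CO2 and 24921 to 34828 CPM in high light. Where fewer cells made a transcript or each cell made less of it, bulk leaf RNA cannot tell these apart.

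The stretches before the start of DTX1 and 4 further genes are shown first. These genes are the most counted of the set whose promoters held a searched motif, so motif presence was fixed by this choice. AT3G44830, the second most counted gene, was passed over. The stretches are the regulatory sequence next to transcripts that went from 0 to high counts in the set. They were read from the RefSeq TAIR10.1 genome, 250 bases each, 5′ to 3′ towards the gene, at chr2:1336551-1336800 (minus strand) for DTX1, chr2:9902965-9903214 (plus strand) for AT2G23270, chr4:6370088-6370337 (plus strand) for ATHSP22.0, chr3:18365428-18365677 (plus strand) for AT3G49540, chr1:4633300-4633549 (minus strand) for AT1G13520. Capitals mark matches, on either strand, to the searched motifs other than the TATA box, and touching or overlapping matches run together.
DTX1: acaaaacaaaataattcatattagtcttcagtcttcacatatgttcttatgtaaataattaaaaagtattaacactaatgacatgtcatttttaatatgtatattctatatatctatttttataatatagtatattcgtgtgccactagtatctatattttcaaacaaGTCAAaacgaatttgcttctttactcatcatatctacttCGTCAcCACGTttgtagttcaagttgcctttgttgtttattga
AT2G23270: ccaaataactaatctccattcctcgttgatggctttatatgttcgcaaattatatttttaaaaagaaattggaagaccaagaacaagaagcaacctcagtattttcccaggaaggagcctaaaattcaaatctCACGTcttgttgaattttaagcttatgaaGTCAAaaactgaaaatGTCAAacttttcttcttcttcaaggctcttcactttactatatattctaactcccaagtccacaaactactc
ATHSP22.0: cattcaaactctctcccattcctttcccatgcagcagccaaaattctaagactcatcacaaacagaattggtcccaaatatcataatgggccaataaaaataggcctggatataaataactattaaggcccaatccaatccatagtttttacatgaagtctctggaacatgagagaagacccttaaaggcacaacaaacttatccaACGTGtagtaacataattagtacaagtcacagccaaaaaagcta
AT3G49540: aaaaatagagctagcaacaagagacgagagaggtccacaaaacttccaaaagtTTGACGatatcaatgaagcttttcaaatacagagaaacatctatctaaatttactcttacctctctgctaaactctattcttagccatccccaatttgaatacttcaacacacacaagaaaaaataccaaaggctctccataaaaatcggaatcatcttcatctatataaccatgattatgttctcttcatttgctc
AT1G13520: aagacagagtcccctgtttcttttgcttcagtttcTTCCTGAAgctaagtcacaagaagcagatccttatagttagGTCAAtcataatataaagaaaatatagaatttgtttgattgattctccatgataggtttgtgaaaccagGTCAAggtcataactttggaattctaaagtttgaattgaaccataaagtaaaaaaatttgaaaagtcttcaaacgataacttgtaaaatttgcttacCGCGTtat

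The W-box core TTGAC, or GTCAA on the other strand, bound by WRKY factors, was found in these stretches of DTX1, AT2G23270, AT3G49540 and AT1G13520, and not in that of ATHSP22.0. The TGA site TGACG overlapped it in AT3G49540, where the capitals TTGACG hold both, and stood alone in DTX1. An ABRE core, ACGTG, the site of bZIP factors of abscisic acid signalling, stood in the stretches of DTX1, AT2G23270 and ATHSP22.0. The CAMTA core CGCGT and a tail to tail heat shock element, TTCNNGAA, were matched in AT1G13520. A match is a run of letters and not a bound site.

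The 69 genes were weakly to moderately counted in high light. Their high light sums ran from 31 to 2472 counts with a median of 79, and their mean levels from 0.464 to 37.5 CPM with a median of 1.18 CPM. Per kilobase of exon the median was 0.999 CPM, against 7.54 CPM over all 18504 genes tested, and 6 of the 69 were above the latter. Together they held 158, 149 and 229.5 CPM in high light replicates 1, 2 and 3. The most counted gene, DTX1, made up 20.8% of their summed counts and the 5 most counted 45.5%.

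Against the limit in high CO2 all 69 lower bounds lay between 9.72-fold and 784-fold, with a median of 24.8-fold. A bound of at least 100-fold was reached by 7 genes, at least 50-fold by 15 and at least 20-fold by 41. Leaving out high CO2 replicate 1 or 2 raised the limit 1.51 and 1.56 times, to 0.0720 and 0.0743 CPM, and lowered the median bound to 16.5-fold and 15.9-fold. Of the 69 genes, 52 passed the low-count filter of the edgeR fit and 17 did not. All 52 were called higher (edgeR quasi-likelihood test, Benjamini-Hochberg adjusted p under 0.05), beside 30.4% of all genes tested. The libraries of the groups did not overlap for any of the 69, beside 33.3% of tested genes with every high light library above every high CO2 library. The rule fixed both of these counts, so they say nothing further about the genes.

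**Figure D1:**
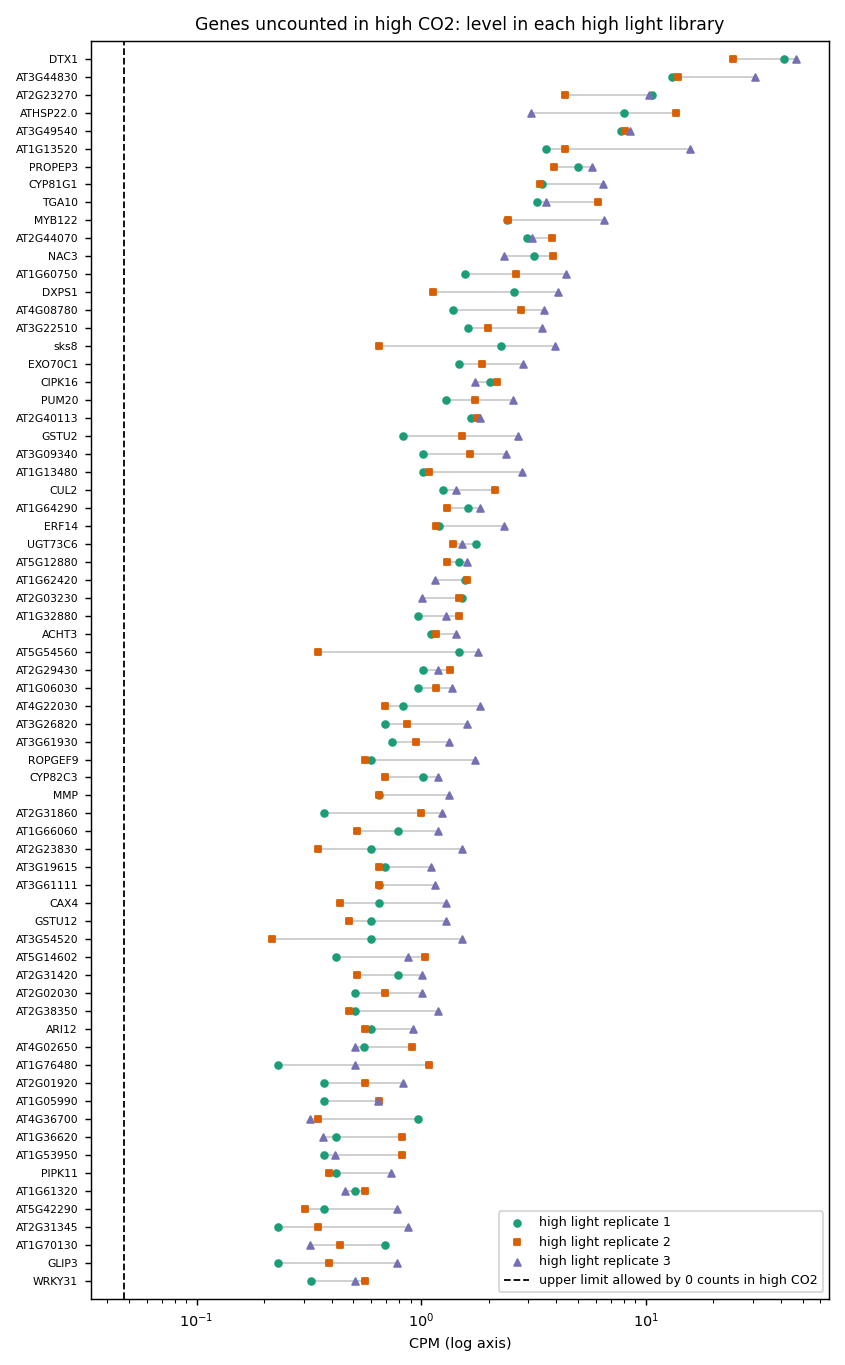
Level of each of the 69 genes in the 3 high light libraries (x axis, CPM, log scale, not divided by length), ordered by mean, with a grey line over their range. The dashed line at 0.0477 CPM is the limit that 0 counts over the high CO2 libraries allow, and every point lies to its right, from 0.217 to 46.6 CPM.

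Genes of transport, conjugation and oxidation included the most counted member. DTX1 (AT2G04040), a MATE efflux carrier that exports toxic compounds, had 894, 564 and 1014 counts in high light replicates 1, 2 and 3, or 37.5 ± 11.6 CPM (SD, n = 3), at least 784-fold above the high CO2 limit. Replicate 2 was the lowest, and the highest was 1.91 times the lowest. The peroxidase gene AT4G08780, of a family of mostly secreted enzymes that use hydrogen peroxide, had 30, 64 and 77 counts (2.57 ± 1.09 CPM, at least 53.8-fold). AT1G60750, an NAD(P)-linked oxidoreductase, had 34, 61 and 96 counts (2.88 ± 1.43 CPM, at least 60.2-fold). In both genes replicate 1 was lowest and replicate 3 highest.

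Conjugating enzymes and cytochromes P450 were counted at low to moderate levels. The tau glutathione transferase GSTU2 (AT2G29480), of enzymes that attach glutathione to reactive compounds, had 18, 35 and 59 counts (1.69 ± 0.951 CPM, at least 35.3-fold), and GSTU12 (AT1G69920) had 13, 11 and 28 counts (0.788 ± 0.436 CPM, at least 16.5-fold). UGT73C6 (AT2G36790), which glucosylates flavonols, had 38, 32 and 33 counts (1.55 ± 0.187 CPM, at least 32.5-fold) and was among the steadiest of the set. The cytochrome P450 gene CYP81G1 (AT5G67310) had 75, 78 and 141 counts (4.44 ± 1.77 CPM, at least 93.0-fold), and CYP82C3 (AT4G31950) had 22, 16 and 26 counts (0.968 ± 0.254 CPM, at least 20.3-fold). The calcium exchanger family gene CAX4 (AT5G01490) had 14, 10 and 28 counts.

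One small heat shock gene belonged to the set, and it ran against the order of most others. ATHSP22.0 (AT4G10250), an endomembrane chaperone, had 174, 316 and 67 counts, or 8.27 ± 5.31 CPM, at least 173-fold. Its highest library, replicate 2, held 4.45 times the level of its lowest, replicate 3. No other heat shock gene met the rule.

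Lipid and metabolic enzymes came next. AT3G44830, of the lecithin:cholesterol acyltransferase family, was the second most counted gene, with 284, 320 and 667 counts (19.2 ± 9.91 CPM, at least 402-fold), and replicate 3 held 2.34 times the lowest level. DXPS1 (AT3G21500), annotated as a putative first enzyme of plastid isoprenoid synthesis, had 56, 26 and 89 counts (2.60 ± 1.48 CPM, at least 54.5-fold), and replicates 2 and 3 stood apart by 3.63 times. The esterase/lipase gene AT3G26820 had 15, 20 and 35 counts, and the GDSL lipase gene GLIP3 (AT1G53990) 5, 9 and 17. ACHT3 (AT2G33270), an atypical plastid thioredoxin, had 24, 27 and 31 counts (1.23 ± 0.167 CPM), a narrow range. The pfkB-like carbohydrate kinase gene AT1G06030 had 21, 27 and 30 counts.

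Danger signals and signalling proteins formed a further group. PROPEP3 (AT5G64905), the precursor of a peptide that wounded or infected cells release and that PEPR receptors perceive, had 108, 90 and 125 counts, or 4.88 ± 0.927 CPM, at least 102-fold. Divided by exon length it stood behind only DTX1 and AT2G23270 among the 69. CIPK16 (AT2G25090), a kinase steered by calcium-sensing CBL proteins, had 44, 50 and 38 counts (1.98 ± 0.215 CPM, at least 41.5-fold). The EF-hand calcium-binding gene AT1G05990 had 8, 15 and 14 counts, near the rule's lower edge. MMP (AT1G70170), an extracellular matrix metalloproteinase, had 14, 15 and 29 counts.

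Transcription factors of several families were present, each family with a single gene. TGA10 (AT5G06839), a bZIP factor known from anther development, had 71, 142 and 78 counts (4.34 ± 1.58 CPM, at least 90.9-fold) and was highest in replicate 2. MYB122 (AT1G74080), a regulator of indole glucosinolate synthesis, had 52, 56 and 142 counts (3.79 ± 2.37 CPM, at least 79.3-fold), with replicate 3 above 2 nearly equal libraries. NAC3 (AT3G15500, also ANAC055), a factor of jasmonate and drought responses, had 69, 89 and 51 counts (3.13 ± 0.758 CPM, at least 65.6-fold). ERF14 (AT1G04370), an ethylene response factor of defence, had 26, 27 and 51 counts (1.57 ± 0.669 CPM, at least 32.9-fold). WRKY31 (AT4G22070) had the lowest mean level of the set, 0.464 CPM, with 7, 13 and 11 counts.

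Ubiquitin ligase parts and RNA-binding proteins were also present. The F-box genes AT1G64290 and AT4G22030, of proteins that choose targets for ubiquitin ligases, had 35, 30 and 40 counts and 18, 16 and 40 counts. CUL2 (AT1G02980), a cullin scaffold, had 27, 49 and 31 counts, and ARI12 (AT1G05880), a RING-type ligase, had 13, 13 and 20. PUM20 (AT1G21620), of the pumilio RNA-binding family, had 28, 40 and 56 counts (1.87 ± 0.650 CPM). AT3G22510, with a conserved region of the pre-rRNA processing protein TSR2, had 35, 46 and 75 counts (2.35 ± 0.966 CPM, at least 49.3-fold).

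Several genes are known from pollen or carry a pollen name, although the libraries were leaves. EXO70C1 (AT5G13150), an exocyst subunit that tethers vesicles, had 32, 43 and 62 counts (2.06 ± 0.707 CPM, at least 43.2-fold). ROPGEF9 (AT4G13240), an activator of ROP GTPases, had 13, 13 and 38 counts, and PIPK11 (AT1G01460), a phosphoinositide kinase, 9, 9 and 16. The pollen Ole e 1 family gene AT2G40113 had 36, 41 and 40 counts (1.76 ± 0.0884 CPM). Of 7 pollen markers, VGD1, VGDH1, PPME1 and MYB101 had 0 counts in all libraries. The summed level of the 7 was 0 to 0.0945 CPM in high CO2 and 0.0462 to 0.138 CPM in high light. None of the seed, pollen, root or flower markers met the rule. Of these only FUS3 (seed), NRT2.1 (root), AG and SEP1 (flower) had counts enough to be tested, and AG and SEP1 were called lower. Among the untested, the seed marker EM6 had 0, 1 and 0 counts in the high CO2 libraries, against 7, 6 and 6 after the shift. The root marker EXPA7 had 0 counts in high CO2, against 12, 2 and 5 after it. Going the other way, the flower marker SEP3 had 10, 16 and 4 counts in high CO2, against 5, 2 and 5. Likewise the root marker AT5G43350 had 7, 6 and 2 counts, against 4, 4 and 1. The 14 seed markers summed to 0.445 to 0.781 CPM in high CO2 and 0.650 to 1.29 CPM in high light, with 10 at 0 in all libraries. Root markers summed to 0.990 to 1.32 and 0.910 to 1.85 CPM, and flower markers to 2.41 to 4.06 and 1.43 to 1.79 CPM, in the same order. All 6 leaf mesophyll markers were called lower, as were 3 of 4 vascular markers. Of 4 guard cell markers 1 was called higher and 2 lower.

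Genes for hypothetical or uncharacterized proteins, 11 of the 69, ran from 0.484 to 8.46 CPM with a median of 1.01 CPM. AT2G23270, an uncharacterized protein gene with a single short exon, had 230, 101 and 226 counts (8.46 ± 3.54 CPM, at least 177-fold). AT3G49540, also uncharacterized, had 168, 186 and 185 counts (8.11 ± 0.371 CPM, at least 169.9-fold) and the smallest coefficient of variation of the 69. AT1G13520, of the DUF1262 family, had 78, 101 and 344 counts (7.93 ± 6.83 CPM, at least 166-fold) and the largest. AT2G44070, of the NagB/RpiA/CoA transferase-like superfamily, had 64, 88 and 68 counts (3.30 ± 0.453 CPM), and sks8 (AT1G21850), of the multicopper oxidase-like SKU5 family, 49, 15 and 86. In all, 43 of the 69 had no gene symbol in the annotation. The set held 67 protein-coding genes and 2 pseudogenes, AT2G31860 and AT1G36620.

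The 3 high light libraries did not hold these genes evenly. The median coefficient of variation was 0.397 over the 69 genes and 0.134 over all genes tested. Among genes of at least 1 CPM it was 0.348 for 39 of the 69, 0.323 for 84 genes that had 1 to 3 counts in high CO2 and met the high light part of the rule, and 0.128 for all 17014 tested. The groups were not matched for level, whose median was 1.18 CPM over the 69 and 13.9 CPM over all genes tested. At least a 2-fold range between libraries was seen in 36 of the 69, and in 17 of the 39 of at least 1 CPM. The same share over all genes tested was not computed. The widest coefficients of variation among genes of at least 1 CPM were those of AT1G13520 (0.862), sks8 (0.721), ATHSP22.0 (0.642), AT5G54560 (0.631) and MYB122 (0.627). The narrowest were those of AT3G49540 (0.0458), AT2G40113 (0.0503), AT5G12880 (0.106), CIPK16 (0.108) and UGT73C6 (0.121).

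High light replicate 3 held the highest level of 47 of the 69 genes, replicate 2 of 17 and replicate 1 of 5. As shares these were 68.1%, 24.6% and 7.25%, beside 36.8%, 31.0% and 32.2% of all genes tested and 60.8%, 21.6% and 17.6% of the 5631 risen genes. Replicate 3 also stood apart from replicates 1 and 2 in both groups on the second principal component of all tested genes, which held 4.90% of the variance. Without high light replicate 3 the mean level of 9 of the 69 genes moved by over 1.5 times, all downward. For AT1G13520 it was 3.99 CPM in place of 7.93, for MYB122 2.41 in place of 3.79, for sks8 1.46 in place of 2.29 and for AT1G13480 1.05 in place of 1.63 CPM. The others were ROPGEF9, AT2G23830, AT3G54520, AT2G31345 and GLIP3, at 0.289 to 0.582 CPM without it. Without replicate 1 AT4G36700 moved as far, to 0.334 CPM from 0.546, and without replicate 2 AT1G76480, to 0.368 CPM from 0.607.

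**Figure D2:**
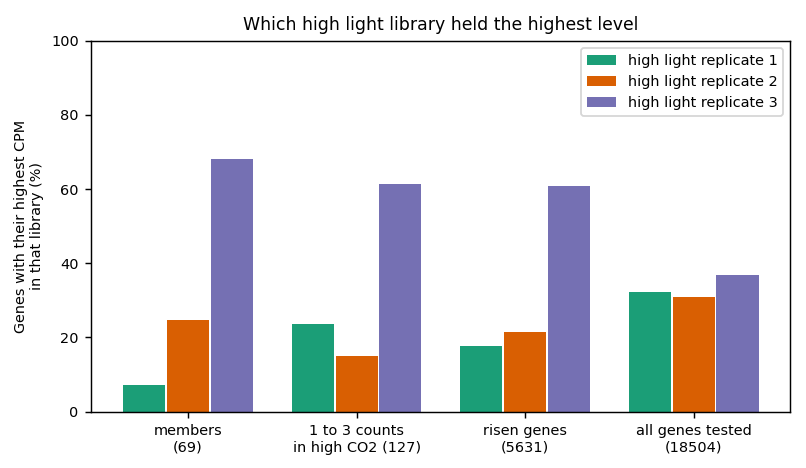
Share of genes (y axis, %) whose highest CPM fell in each high light library, for the 69 members, the 127 genes with 1 to 3 counts in high CO2, the 5631 risen genes and all 18504 tested. The bar of replicate 3 reaches 68.1% for the members, 61.4%, 60.8% and 36.8% for the others in this order.

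Some of the genes sat in rows of like genes. Of the 69 genes 22 had, within 10 loci on the chromosome, at least 1 gene with 60% or more transcript identity over at least 50% of their length. For 16 of these 22 at least 1 such neighbour had a count in high CO2, and for 6 none had. The same share over all genes was not computed. These neighbours were 46 genes, of which 33 were counted in high CO2, while 7 had 0 counts in all libraries. Of the 46, 20 were called higher, beside 30.4% of all genes tested, though not all of the 46 were tested. AT1G13480 and AT1G13520, members that neighbour each other, are among the 46, and the rule fixed their 0 counts and their calls. None of the 69 had a copy of 95% or more identity over at least 50% of its length. In 4 of the 22 the member held under 1% of the high light counts of its like neighbours.

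The tau glutathione transferases show such a row. GSTU2 had 0 counts in high CO2 and 112 in high light. Beside it GSTU1 went from 124 to 10041 counts over the groups (log2 fold change 6.26, edgeR adjusted p = 2.5e-07), GSTU3 from 4 to 1550 (8.40, adjusted p = 6.7e-07) and GSTU4 from 117 to 29583 (7.91, adjusted p = 3.0e-06). GSTU5 was abundant in both groups, with 9723 and 66775 counts (2.70, adjusted p = 1.4e-06), and GSTU6 rose from 165 to 410 (1.24, adjusted p = 0.0112). Per kilobase GSTU2 reached 1.77 CPM in high light against 137 CPM of GSTU1 and 793 CPM of GSTU5. The counts of GSTU2 were 0.103% of those of its 5 like neighbours, its transcript was 85.5% identical to that of GSTU1, and whether reads of the latter were assigned to it was not tested.

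UGT73C6 lay in a row of 6 glycosyltransferase genes of the same kind. DOGT1, a deoxynivalenol glucosyltransferase with 90.9% transcript identity to it, rose from 628 to 58301 counts (log2 fold change 6.47, edgeR adjusted p = 3.0e-07). UGT73C1 rose from 56 to 6311 counts (6.74), AT2G36780 from 13 to 1587 (6.82) and AT2G36770 from 1 to 449 (8.29; edgeR adjusted p = 5.7e-07, 1.3e-06 and 1.5e-06). UGT73C2, between them, had 1 count in high CO2 and 3 in high light. UGT73C6 itself, with 0 and 103 counts, held 0.155% of the counts of its 5 neighbours in high light, and assignment of their reads to it was not tested.

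DTX1 was closer in count to its like neighbours. The MATE genes AT2G04050 and AT2G04070 rose from 65 to 3070 and from 195 to 5511 counts (5.49 and 4.76 on the log2 scale, with adjusted p = 9.3e-06 and 2.5e-05 by edgeR). AT2G04080 had 1903 and 2015 counts in the groups (0.01, adjusted p = 0.968) and AT2G04090 had 0 in all libraries. Per kilobase DTX1 reached 20.3 CPM in high light, AT2G04050 25.4, AT2G04070 48.7 and AT2G04080 15.9 CPM. The closest transcript to that of DTX1 was 87.2% identical.

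Oxidoreductase and DUF1262 rows held genes that went opposite ways or stayed at 0. Beside AT1G60750, AT1G60730 rose from 451 to 13160 counts (log2 fold change 4.80, edgeR adjusted p = 3.6e-06). ATB2 fell from 7575 to 4745 counts (-0.75, adjusted p = 0.00124) and AT1G60690 from 1238 to 687 (-0.94, adjusted p = 3.2e-04). In the DUF1262 row 2 of 9 genes met the rule, AT1G13480 with 22, 25 and 61 counts and AT1G13520. The first gene of that row, AT1G13470, rose from 1520 to 12516 counts (2.95, edgeR adjusted p = 1.4e-04). AT1G13490 and AT1G13510, which lie between the members, had 0 counts in all libraries. The peroxidase gene AT4G08780 lay beside Prx37, with 93.4% transcript identity, which rose from 5 to 846 counts (7.21, edgeR adjusted p = 8.3e-06).

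**Figure D3:**
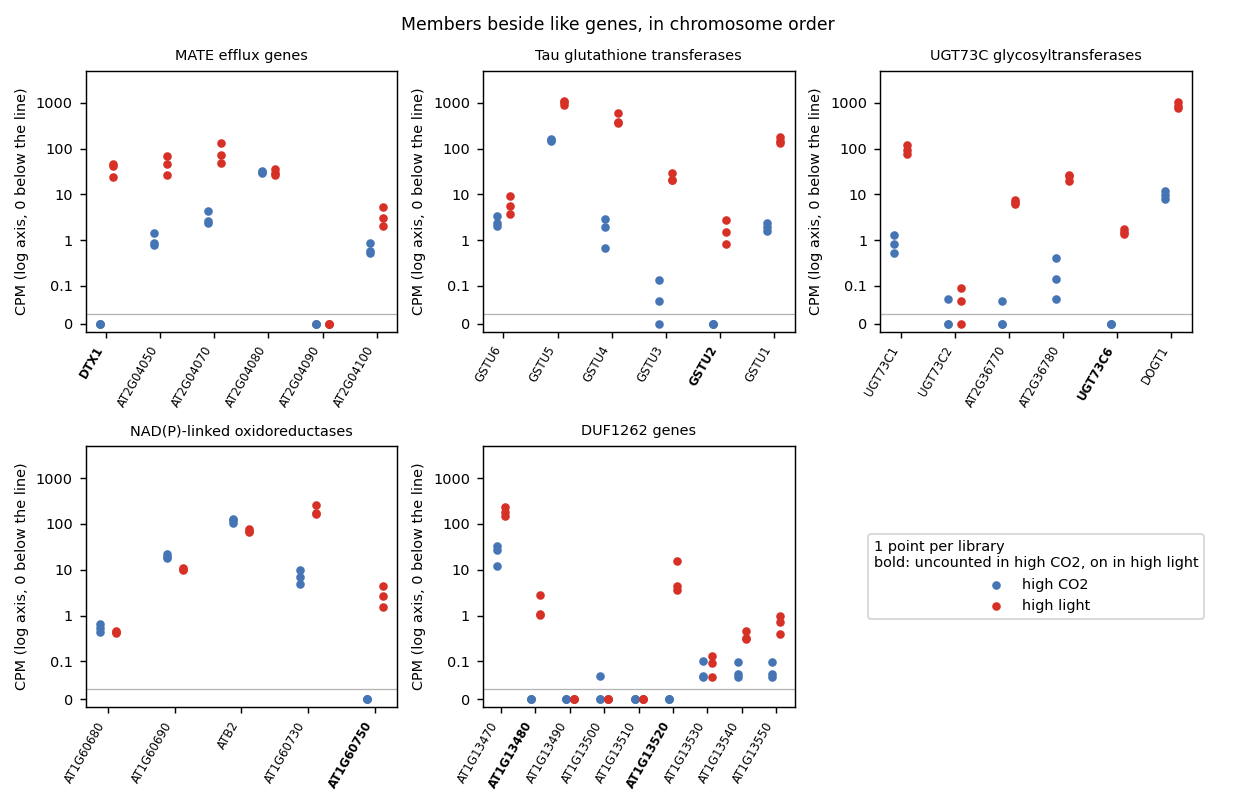
CPM in each library (y axis, log scale, zeros drawn below the grey line, not divided by length) of 5 rows of like genes in chromosome order, with high CO2 in blue and high light in red. Members, in bold, have all 3 blue points at 0, while a neighbour such as GSTU5 or DOGT1 is counted in all 6 libraries.

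In 11 of the 22 cases the member had more high light counts than its like neighbours together. For sks8, AT1G61320, AT1G66060 and CYP82C3 the like neighbours had 0 counts in high light. CYP82C3, with 64 counts there, lay near CYP82C4, with 0 counts in all libraries, and CYP82C2, with 2 counts in high CO2 and 0 in high light, and the transcripts were 90.5% and 90.6% identical to its own. AT3G09340, an amino acid transporter family gene, had 112 counts, and AT3G09330, 94.6% identical, had 6 in high CO2 and 8 in high light.

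Genes next to members were also compared. Of the 138 genes adjacent to a member 42 were called higher, or 30.4%, beside 20.9% of genes adjacent to any tested gene and 25.97% of those adjacent to a risen gene. An upstream neighbour on the same strand within 1000 bases was present for 25 of the 69, and in 10 cases it was called higher. That is 14.5% of the members, beside 7.18% of tested genes. The same share over risen genes was not computed. Among the 42 are like genes of the rows above, such as GSTU1, DOGT1 and Prx37, and opposite-strand partners, such as MYBR1. They are counted again here. GSTU2 starts 19 bases after the end of GSTU1. The pseudogene AT1G36620, with 9, 19 and 8 counts, starts 55 bases after AT1G36622, whose counts were 1, 7 and 4 in the high CO2 libraries and rose to 570, 552 and 731 (log2 fold change 7.15, edgeR adjusted p = 7.2e-07). Whether reads of such neighbours add to a member was not tested.

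On the opposite strand another gene overlapped more than 10% of the exon bases of 11 of the 69 (15.9% of members, beside 11.8% of tested genes), and more than 50% of those of 6 (8.70%, beside 2.26%). UGT73C6, AT2G03230, AT5G42290 and AT2G31345 were covered completely. The partner of AT5G42290, UBL5, a ubiquitin-like protein gene, had 177.6 ± 18.7 CPM (SD, n = 3) in high CO2, where AT5G42290 had no count, and 240.3 ± 28.3 CPM in high light. CYP81G1 shared 39.4% with MYBR1, which had 53.5 ± 4.92 CPM in high CO2 and rose to 152 ± 43.6 CPM (1.51 on the log2 scale, adjusted p = 3.6e-04 by edgeR). DTX1 shared 15.3% with AT2G04039, which had 184 ± 9.63 CPM and fell to 74.0 ± 8.13 CPM (-1.32, adjusted p = 5.7e-05 by edgeR). The library kit keeps strand, but the strand setting of the counting is not given in the sources used here, so counts of such pairs are uncertain.

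Families defined by words of the annotation's product names place the 69 genes among their relatives. Of 27 families 16 held members, and 35 of the 69 genes fell in a family. Glutathione transferases had 2 members among 47 genes, or 4.26%, the largest share of the 27 families, and of 41 tested 25 rose and 9 fell, with a median log2 fold change of 2.70. Of 46 tested WRKY factors 31 rose and 4 fell (median 1.67), with 1 member among 72 genes. NAC factors had 1 member among 83, and of 52 tested 31 rose and 4 fell (median 1.33). AP2/ERF factors had 1 among 122, with 39 risen and 16 fallen of 75 tested (median 0.86). Some other families with members did not rise in this way. Of 107 tested cytochromes P450 35 rose and 43 fell (median -0.20), with 2 members among 218 genes. Lipases or acyltransferases, with 3 members among 381, had 58 risen and 95 fallen of 246 tested (median -0.21). Medians were -0.15 for MYB factors, -0.01 for glycosyltransferases, 0.05 for kinases and 0.06 for F-box genes. Over all genes tested the median was -0.06, with 5631 risen and 5616 fallen.

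The rule was met by 0.205% of all genes, and by 0.636% of nuclear genes at 0 in high CO2. F-box genes numbered 628, of which 371 had 0 counts in high CO2 and 316 in all libraries, and 3, or 0.478% of the family, met the rule. Genes for hypothetical or uncharacterized proteins numbered 6456, of which 4419 had 0 counts in high CO2, and 11, or 0.170%, met the rule. Defensins and other cysteine-rich peptides, with 197 of 280 genes at 0 in high CO2, gave 0 members, and of 58 tested 38 rose and 8 fell (median 1.91). Kinases of every kind gave 4 members among 1358 genes, CIPK16, AT1G06030, PIPK11 and AT1G70130.

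As gene models the 69 were short and often without introns. The median exon length was 1308 bases, beside 1800 bases over tested genes, and 34.8% had a single exon, beside 13.7%. The 127 genes with 1 to 3 counts in high CO2 that met the rest of the rule had 1046 bases and 47.2% in the same measures. Members numbered 24, 17, 11, 8 and 9 on chromosomes 1 to 5, and no 2 members were adjacent.

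Promoter windows of 300 bases, 250 before and 50 after the annotated start, were searched on both strands. The W-box core was in 65.2% of the 69, beside 64.6% of the 127 genes just described, 58.6% of risen genes and 50.01% of all 32834 windows. The ABRE core ACGTG was in 33.3%, beside 33.1%, 30.9% and 25.4% in this order, and the TATA box TATAAA in 62.3%, beside 60.6%, 53.5% and 50.05%. The heat shock element GAANNTTC was in 4.35% of the 69 and in 21.3% of the 127, beside 14.9% and 11.3%, and the form TTCNNGAA in 7.25% and 7.09%, beside 10.06% and 9.27%. The mitochondrial dysfunction motif, bound by membrane-tethered NAC factors, was in 5.80%, that is 4 genes, and in 6.30%, beside 2.04% and 2.16%. The GCC box GCCGCC was in 5.80% and 3.15%, beside 3.29% and 2.72%. TGA sites, in 23.2% and 22.8% of the 69 and of all windows, and the DRE core CCGAC, in 14.5% and 15.6%, were about as frequent in both. The G-box CACGTG, which holds the ABRE core, was in 4.35% of the 69, beside 11.02%, 9.86% and 6.90% of the 127, of risen genes and of all windows, and the CAMTA core in 13.0%, beside 15.0%, 11.9% and 8.77%. The interval of each share of the 69 is wide, such as 52.8% to 76.3% for the W-box core (95% exact binomial, counting error only).

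**Figure D4:**
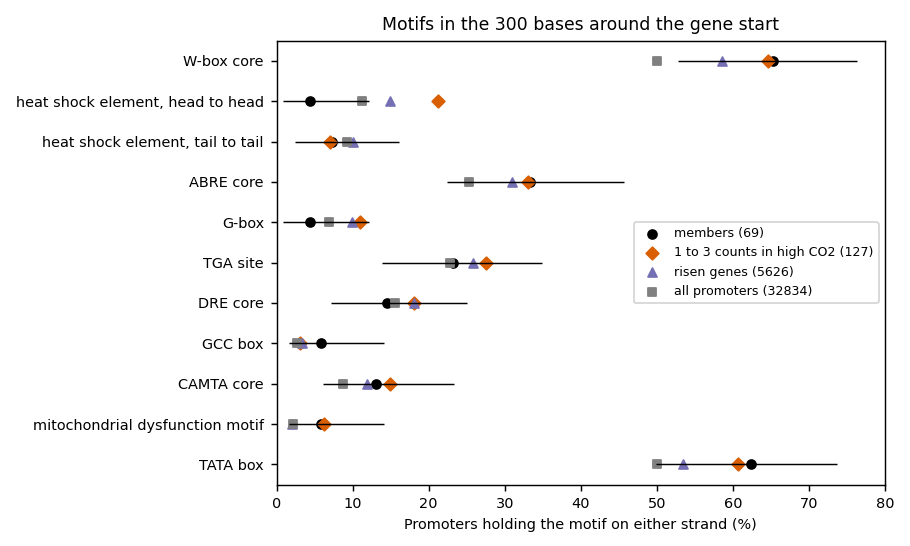
Share of promoter windows (x axis, %) that hold each motif on either strand, for the 69 members, the 127 genes with 1 to 3 counts in high CO2, risen genes and all windows, with lines for the 95% exact binomial interval of the members. The members lie at 65.2% for the W-box core and at 4.35% for the head to head heat shock element, where the 127 genes lie at 21.3%.

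The edge of the rule cut through a continuous range. The lowest genes inside were WRKY31 and GLIP3 with high light sums of 31, and AT1G70130, AT5G42290 and AT2G31345 with 32. Just outside stood CYP715A1 with 16, 1 and 22 counts, the HSP20-like gene AT4G27890 with 3, 14 and 18, and AT2G42560, of a late embryogenesis abundant family, with 30 counts in replicate 1 and 0 in the others. AT4G38030 and AT4G28000 missed it with sums of 29. With 1 count in high CO2 the most counted were AT5G55150, IDA, SAP10, ACS2 and AT5G05220, at 902 to 2924 counts in high light.

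The number of genes found depended on single libraries and on the allowance in high CO2. Of nuclear genes with exactly 0 counts in high CO2, 0.636% met the high light part of the rule. Of those with 1, 2 and 3 counts 48 (4.53%), 38 (6.69%) and 41 (10.7%) did. The first share has an unlike base, since 9463 of its 10855 genes had 0 counts in all libraries. Only 1392 had a count in high light, and the 69 are among these. Without high CO2 replicate 2 the rule gave 108 genes, against 92 and 90 without replicates 1 and 3. Without high light replicate 3 it gave 45, against 59 and 55 without replicates 1 and 2. Leaving out a high CO2 library can only add genes. With a high light library left out the sum of at least 30 was kept over the remaining libraries, so it was harder to reach. The mirrored rule, with 0 counts in high light and the same minimum in high CO2, gave 0 genes. No test bears on that difference.

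**Figure D5:**
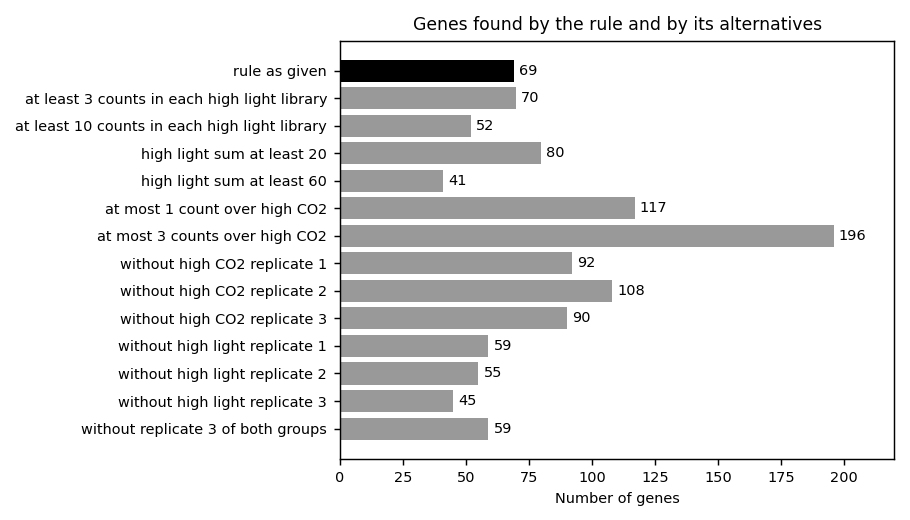
Number of genes (x axis) found by the rule as given, in black, and with 1 choice changed, in grey. The count is 69 as given and runs from 41 with a high light sum of at least 60 to 196 with up to 3 counts allowed in high CO2.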

How the data were processed

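The submitters' processing notes name Trim Galore 0.3.3, TopHat2 2.1.0, featureCounts, Subread 1.4.6 and the build TAIR10. The authors deposited raw counts per gene, not normalized, in 1 table, and 2 leftover header lines were left out. Organelle genes are all listed at 0. How strand and reads matching several places were handled is not given in the sources used here, and both could move the counts of overlapping or like genes.

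Groups came from the sample titles. The members, families, markers, motifs and the rule for named genes were chosen with earlier results of these data known, and the family words "uncharacterized protein", "Integrase-type DNA-binding" and a capital in "Ethylene" were added once the annotation was seen. Named are the 20 members with the highest mean CPM, the 2 highest of each family, the 5 genes on each side of the rule's edge, the 5 highest with an opposite-strand overlap and the 5 with the widest and narrowest spread. Further named genes were chosen after their values were seen.

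All genes were fitted with edgeR 4.0.16 in R 4.3.3 (filterByExpr with a minimum of 10 counts, TMM, robust quasi-likelihood, two-sided, Benjamini-Hochberg over 18504 genes), after a check on simulated counts. Alternatives were DESeq2 1.42.0, limma-voom (limma 3.58.1), other scalings, no filter, a replicate block, other rule limits and leaving out libraries. Replicate numbers were not taken as pairs in the main fit, though replicate 3 of both groups deviated alike (correlation 0.41). CPM use TMM factors. Annotation and sequence are RefSeq TAIR10.1, matched by locus (32835 of 33602 genes, all 69 members). Its name differs from that of the build used for counting, and the count table has no coordinates, so only TAIR10.1 coordinates are given. Like genes were found with BLAST 2.17.0. One promoter sequence is not reported here.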

Additional observations from a re-analysis of the deposited data

How the results depend on the processing

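The number of genes meeting the rule was 69. It was 41 with a high light sum of at least 60, 117 with up to 1 count and 196 with up to 3 counts allowed over high CO2, and it ran from 45 to 108 when 1 library was left out, the extremes being without high light replicate 3 and without high CO2 replicate 2. It was 59 when replicate 3 was left out of each group, which was chosen after seeing the data. Raising the strand overlap from over 10% to over 50% of exon bases left 6 genes in place of 11. These follow from the construction of each alternative. The median and summed level of the 69 and the count of genes highest in replicate 3 moved by less than the spread between libraries or under 1.5 times with the other scalings. With motif windows of 250 bases in place of 300 every share stayed within its interval, though the G-box share was 1.45% in place of 4.35% and that of the CAMTA core 7.25% in place of 13.0%. Calls over all genes stayed within 1.5 times: 5631 higher and 5616 lower, 5058 to 6108 and 4274 to 5368 without 1 library, and 4386 and 7883 with upper-quartile factors, which lowers the share of rises. Same-numbered libraries of the groups correlated at 0.219, -0.0207 and 0.410 in their deviations from the group means. Libraries of unlike number correlated at -0.413 to 0.235, so the value of replicate 3 was the highest of all. The numbers were not taken as pairs in the main fit. With the replicate block 5880 genes were called higher and 6071 lower, and high CO2 replicate 1 correlated best with high light replicate 2 (0.235). Genes of about 30 counts in high light carry bounds near 10-fold and cannot show more at this depth.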

Other observations

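Other stress genes missed the set by 1 to 3 counts in high CO2, and 127 genes did so while meeting the high light part of the rule. IDA (AT1G68765), the precursor of a peptide that controls organ shedding, had 1 count over high CO2 and, in high light, 489, 421 and 707. SAP10 (AT4G25380), a stress-associated zinc-finger protein gene, had 1 and 410, 628 and 526. ACS2 (AT1G01480), which makes the precursor of ethylene, had 1 and 322, 232 and 359. HSP21 (AT4G27670), the plastid small heat shock protein, had 1 and 99, 201 and 105, so that, like ATHSP22.0, its replicate 2 was the highest. HSP21 was chosen after its values were seen.

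High CO2 replicate 2 alone kept 39 genes out of the set, 22 of them with at least 2 counts there, while replicate 1 alone kept out 23 (7 with at least 2) and replicate 3 alone 21 (6). Library totals of high CO2 replicates 1 to 3 were 22130229, 24149149 and 18047295. The largest such count was 14 for KTI1, a Kunitz trypsin inhibitor gene, which had 32, 12 and 14 in high light. RAP2.6 (AT1G43160), an ethylene response factor of stress, had 10 counts in high CO2 replicate 2, 0 in the others and 503, 77 and 13 in high light replicates 1, 2 and 3. In the opposite direction 738 nuclear genes had 0 counts in high light and at least 1 in high CO2, beside 1392 the other way, and the largest sum in high CO2 among them was 36, for FLP1 (AT4G31380), a flowering-promoting factor-like gene, with 14, 4 and 18 counts. These 3 genes were chosen after their values were seen.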
